A study of Homo sapiens with 24 samples.

Results

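The comparison described here set LNCaP cells that expressed WDR77-peptide 3 (P3) against cells that carried the empty vector (EV), with both given the androgen R1881. It rests on 6 of the 24 RNA-seq libraries of the series, 3 per side, chosen by their labels. P3_R1881 (libraries S6, S20 and S34) came from cells transfected with a construct encoding the peptide, and EV_R1881 (S2, S16 and S30) from cells transfected with the empty vector. All were LNCaP cells seeded at 300000 per well, moved to androgen-deprived medium after transfection, and given 5 nM R1881 for 48 h. The labels describe biological triplicates, and name neither the promoter that drives the peptide nor the share of cells that took up the construct. The other groups appear for reference only, namely P3_vehicle and EV_vehicle (the same transfections with ethanol in place of R1881) and the cells of a second study that received an siRNA against WDR77 (siWDR77) or a control siRNA (siCtrl).

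LNCaP is a human prostate adenocarcinoma line of luminal type that depends on the androgen receptor. On binding androgen, the receptor enters the nucleus, binds DNA with pioneer factors such as FOXA1, and recruits coregulators that raise or lower transcription. WDR77 is a WD-repeat protein known as such a coregulator, and as the partner of the arginine methyltransferase PRMT5 in the methylosome, which methylates Sm proteins for assembly of the splicing machinery. The title of the series names the interaction of the receptor with WDR77 as its target, and this comparison asks what the peptide changes when the receptor is active.

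The libraries held 17115227 to 20606047 counts in P3_R1881 and 16945017 to 20893970 in EV_R1881. The 8 markers of the line were all above 1 CPM (counts per 1000000 counts of the library, scaled by TMM), with a summed level of 10574 to 10887 CPM in P3_R1881 and 15948 to 17451 CPM in EV_R1881. KLK3 and KLK2 among them are androgen-induced. Of the other cell types, 13 of 15 immune markers stayed under 1 CPM in all 6 libraries, with PTPRC, CD3D, CD3E, MS4A1, HBB and HBA1 at 0. The P3 libraries held more weakly counted features. A count was found for 26845, 26870 and 26538 features in P3_R1881, against 24988, 25296 and 24531 in EV_R1881, so the groups did not overlap. Features too low to test took 0.152% of counts in P3_R1881 and 0.110% in EV_R1881 (means), and the 50 most abundant genes took 14.1% to 14.5% in P3_R1881 and 15.9% to 16.4% in EV_R1881. The median log2 difference followed the level of the gene, at 0.60 for 1302 genes under 0.5 CPM, 0.17 at 2 to 5 CPM and -0.19 for 549 genes at 300 CPM or more. A second scaling, added after seeing the data and called level-trend scaling here, takes a smooth trend against level out of each library, and its values are given where they change a call.

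**Figure D1:**
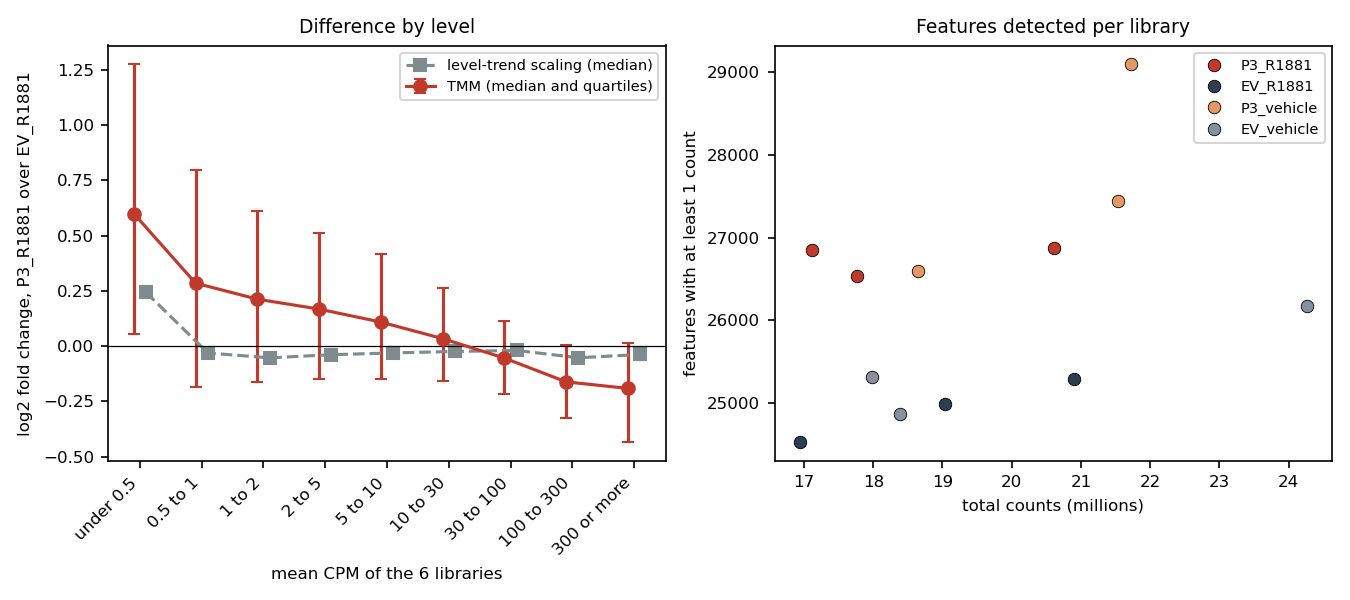
Left, the log2 fold change of P3_R1881 over EV_R1881 (y) by the mean CPM of the 6 libraries (x), as median and quartiles with TMM scaling and as median with level-trend scaling. Right, features with at least 1 count (y) against total counts (x) for each library; the 3 P3_R1881 libraries lie at 26538 to 26870 features, above the 24531 to 25296 of EV_R1881.

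WDR77 itself was higher in cells with the peptide. Its level was 89.3, 101 and 94.7 CPM in P3_R1881, against 59.4, 58.8 and 64 CPM in EV_R1881, a log2 difference of 0.64 ± 0.067 (± SE here and below; edgeR adjusted p = 2.31e-10). The groups were well apart. Without hormone it stood at 56.2, 61.6 and 52.3 CPM in P3_vehicle and 55.1, 58.8 and 63.6 CPM in EV_vehicle, a log2 difference of -0.06 ± 0.068 (adjusted p = 0.572), with overlapping libraries. Whether reads from the construct entered the R1881 value was not tested. PRMT5 was 91.9, 98.9 and 103 CPM in P3_R1881 and 93.6, 100.1 and 97.4 CPM in EV_R1881, with overlapping libraries (adjusted p = 0.876).

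Across the genome 6572 of 17772 genes (37% of those tested) passed edgeR's quasi-likelihood test at a Benjamini-Hochberg adjusted p under 0.05. Of these, 3212 were higher (18.1%) and 3360 lower (18.9%) with P3. By at least 2-fold, 909 genes were higher (5.11%) and 202 lower (1.14%). That imbalance belonged in part to weakly counted genes, since level-trend scaling gave 541 higher and 375 lower, and restricting to genes averaging 1 CPM or more gave 508 higher and 158 lower. In 3994 genes (22.5%) all 3 P3_R1881 libraries lay above the 3 of EV_R1881, and in 4023 (22.6%) all lay below. Every gene given below with the values of both groups lies in one of these sets. These shares, with a median log2 difference of 0.03 over all genes tested, are the background for the groups that follow. The gene lists were chosen with earlier results of these data known, so their counts are descriptions and not independent tests.

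Some lineage factors moved, in both directions. GATA2, a pioneer factor in luminal cells, rose to 368, 432 and 437 CPM in P3_R1881, against 222, 229 and 261 CPM in EV_R1881 (0.80 ± 0.061). SOX9, a developmental transcription factor, fell to 24.9, 25.2 and 22.3 CPM in P3_R1881, against 44.5, 39.7 and 44.5 CPM in EV_R1881 (-0.83 ± 0.089), and the epithelial factor GRHL2 fell too (-0.49 ± 0.048). FOXA1 (-0.05 ± 0.048) and the prostate homeobox gene HOXB13 (0.06 ± 0.048) overlapped between groups. Level-trend scaling put FOXA1 slightly higher, at 0.11 (adjusted p = 0.0475), and HOXB13 at 0.22 (adjusted p = 6.90e-05), so no direction is given for either. Of the 15 genes tested in the lineage list, 3 were higher and 4 lower, with a median of 0.05. In so short a list these counts lie near the shares of all genes tested (18.1% higher and 18.9% lower).

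Of 39 coregulators of the receptor, 12 were higher and 9 lower, with a median of 0.07. The coactivator gene ZMIZ1 was 179 CPM in P3_R1881 and 123 CPM in EV_R1881 (0.55 ± 0.054), and no member other than WDR77 rose more. Lower were PIAS1, a SUMO ligase (-0.73 ± 0.065), and GSN, which encodes the actin-severing protein gelsolin (-0.75 ± 0.11). Among 25 genes of the PRMT5 methylosome and Sm protein assembly, 9 were higher and 1 lower, with a median of 0.11. GEMIN4, a subunit of the SMN complex, was 83.1, 81.5 and 92.4 CPM in P3_R1881, against 61.4, 59.8 and 64.6 CPM in EV_R1881 (0.47 ± 0.063). PRMT7, another arginine methyltransferase, was 49.2, 49.3 and 49.4 CPM in P3_R1881 against 39.8, 38.6 and 39.7 CPM in EV_R1881 (0.32 ± 0.066), a narrow spread in each group. The 1 lower member was LSM10, a subunit of the U7 particle that processes histone transcripts (-0.52 ± 0.085).

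Androgen-induced genes were lower as a group. Of 44 tested, 43 were called lower and none higher, with a median of -0.89 and a range from -1.48 to -0.05, and STEAP2 was the member not called. NDRG1, a stress- and androgen-induced gene, was 1020.5, 892 and 925 CPM in P3_R1881, against 2362, 2317 and 2485 CPM in EV_R1881 (-1.34 ± 0.056). STEAP4, a metalloreductase gene, was 84.5, 85.4 and 78.8 CPM in P3_R1881 against 216, 218 and 200.1 CPM in EV_R1881 (-1.35 ± 0.060). In vehicle STEAP4 was at 0.3 CPM in P3 and 0.13 CPM in EV cells, so P3 cells with R1881 lay between vehicle and EV_R1881. KLK2, a kallikrein gene, was 499.8, 475 and 482 CPM in P3_R1881 and 733, 787 and 836 CPM in EV_R1881 (-0.69 ± 0.052). Its neighbour KLK3, the gene of prostate-specific antigen, differed by -0.66 ± 0.047, which passed in the 12-library fit but not when all 24 libraries were fitted together (adjusted p = 0.107). Of the 43, 15 fell by at least 2-fold.

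Androgen-repressed genes went the other way. Of 23 tested, 17 were higher and 3 lower with P3, with a median of 1.98, and 14 of those higher passed 2-fold. DDC, the gene of aromatic amino acid decarboxylase, was 68.7, 67.9 and 64.5 CPM in P3_R1881, against 10.2, 8.08 and 6.29 CPM in EV_R1881 (3.02 ± 0.10). PLA2G2A, a secreted phospholipase gene, was 22.2, 23.4 and 26.7 CPM in P3_R1881 against 4.82, 2.22 and 3.28 CPM in EV_R1881 (2.82 ± 0.14). COL5A2, a fibrillar collagen gene, was 15.7, 13.7 and 14 CPM in P3_R1881 against 3.42, 2.06 and 2.03 CPM in EV_R1881 (2.52 ± 0.14). All 3 stood higher again in vehicle, DDC at 132 CPM in P3 and 187 CPM in EV cells. The members that fell included ST6GALNAC1, a sialyltransferase gene (-1.15 ± 0.087), and AGR2, a protein disulfide isomerase gene (-0.59 ± 0.13), both of which R1881 raised in control-siRNA cells (by 4.87 and 2.02).

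**Figure D2:**
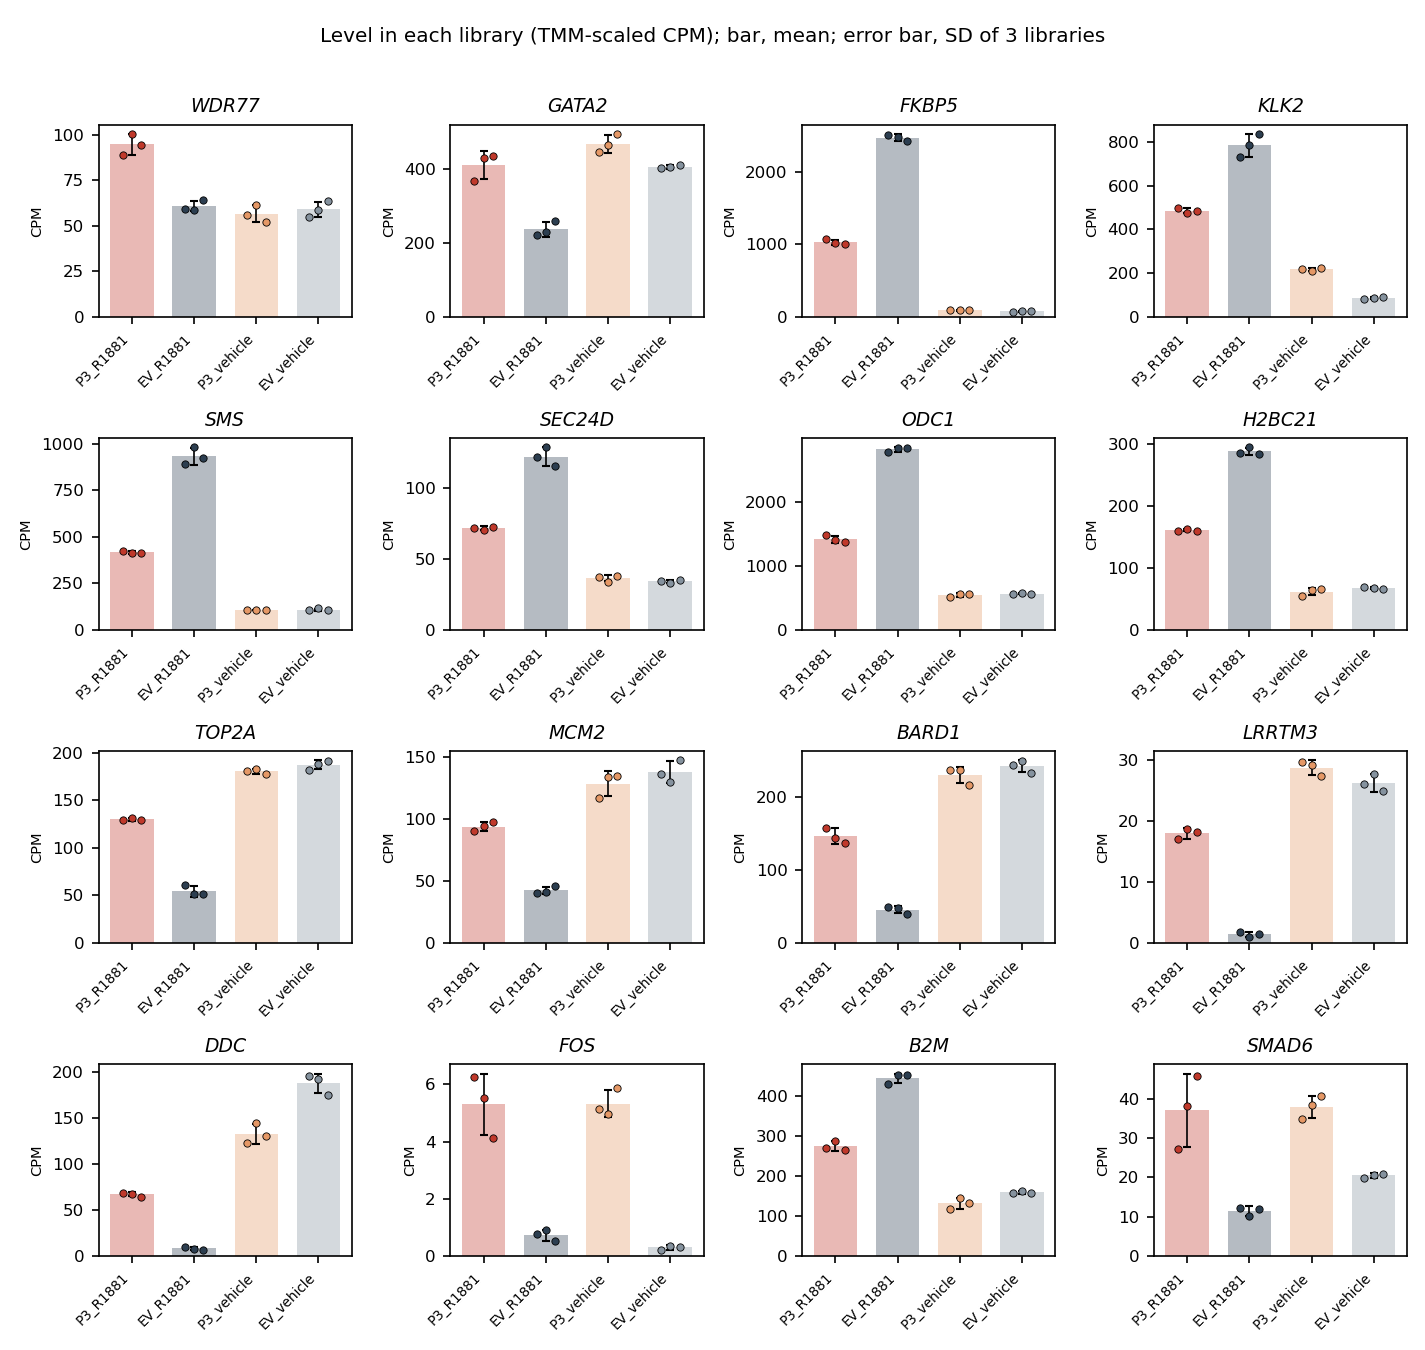
Levels in CPM (y, starting at 0) of 16 genes in the 3 libraries of each group (x, P3_R1881, EV_R1881, P3_vehicle and EV_vehicle); points are libraries, bars means and error bars SD. In P3_R1881 the androgen-induced FKBP5, KLK2 and SMS lie below EV_R1881 and above both vehicle groups, while TOP2A, MCM2, BARD1 and LRRTM3 lie above EV_R1881 and below both vehicle groups.

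A view of the hormone response that uses none of these libraries came from the control-siRNA cells. Genes that R1881 raised there by at least 2-fold numbered 1235 (6.9% of those tested in that study), of which 1176 were tested here. With P3, 791 of them (67.3%) were lower and 6 higher, with a median of -0.59. Genes that R1881 lowered there numbered 1873 (10.5%), of which 1707 were tested here, and 906 (53.1%) were higher and 7 lower, with a median of 0.74. Under level-trend scaling 874 of the raised genes were lower and 751 of the lowered genes higher. Genes grouped into bins by that response differed in level as well. Their median was 0.46 CPM in the most lowered bin, 24.6 CPM in the middle bin and 4.98 CPM in the most raised bin. The P3 difference was graded with the response. Its median was 2.66 for 79 genes lowered 16-fold or more in control-siRNA cells, 1.08 and 0.62 in the next bins, 0.00 for 10136 genes that moved by less than 0.5 on the log2 scale, and -0.48, -0.77 and -1.06 in the bins of genes raised by 1 to 2, 2 to 4 and at least 4. Across 17236 genes the P3 difference and the control-siRNA response had a Pearson correlation of -0.66, and of -0.70 over the 14506 genes averaging 1 CPM or more. This correlation is across genes, which are not independent replicates.

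**Figure D3:**
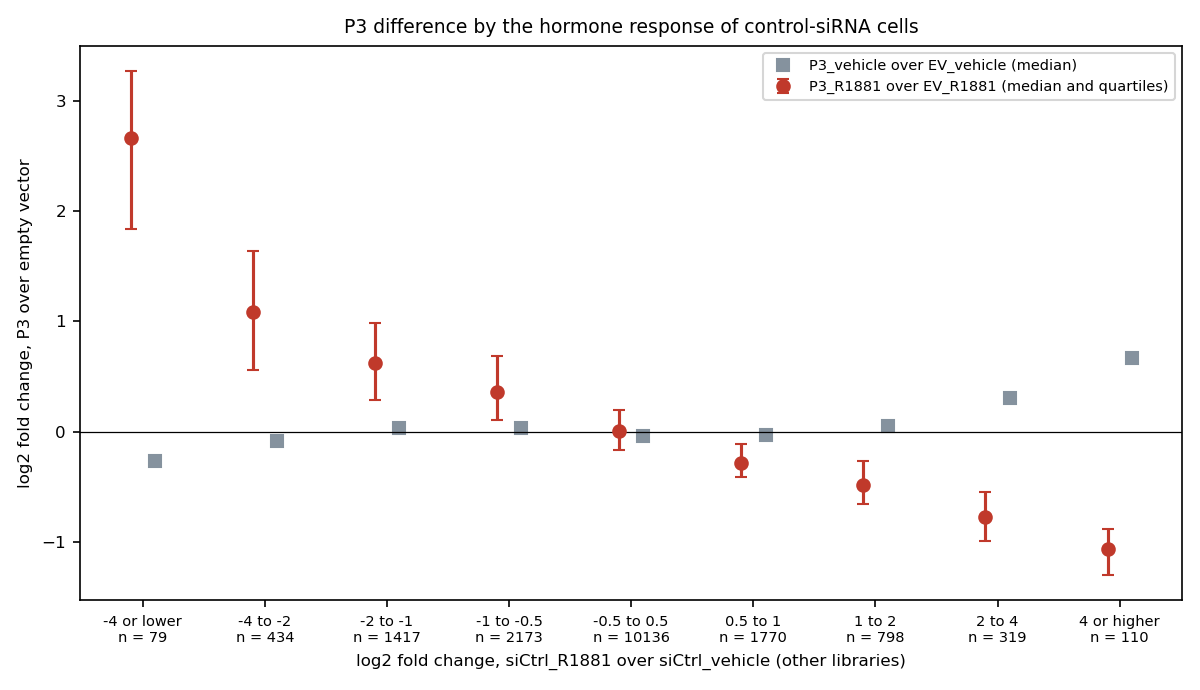
Log2 fold change of P3 over empty vector (y) for genes grouped by their log2 response to R1881 in control-siRNA cells (x, with the number of genes), as median and quartiles with R1881 and as median in vehicle. With R1881 the median runs from 2.66 at the left to -1.06 at the right, and in vehicle from -0.27 to 0.67.

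The genes with the smallest adjusted p in these sets covered several functions. Among hormone-raised genes, SLC41A1, a magnesium transporter gene, was 367, 346 and 344 CPM in P3_R1881, against 739, 719 and 769 CPM in EV_R1881 (-1.08 ± 0.048). ACSL3, an acyl-CoA synthetase gene, was 899, 858 and 849.9 CPM in P3_R1881 against 2024, 2043 and 1909 CPM in EV_R1881 (-1.20 ± 0.048). Among hormone-lowered genes, ATP1B1, the beta subunit of the sodium pump, was 142, 132 and 136 CPM in P3_R1881 against 55, 51.4 and 47.4 CPM in EV_R1881 (1.41 ± 0.059). GASK1B, a Golgi-associated kinase-like gene, was 116 CPM in P3_R1881 and 40.5 CPM in EV_R1881 (1.52 ± 0.065). The exceptions included CDC25A, a cell-cycle phosphatase gene raised by R1881 in control-siRNA cells and higher with P3 (0.44 ± 0.094; adjusted p = 0.0788 in the fit over all 24 libraries), and CLU, the clusterin gene, lowered there and lower with P3 (-0.50 ± 0.091).

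The largest rises were in genes nearly silent in EV_R1881. LRRTM3, which encodes a leucine-rich repeat adhesion protein of synapses, was 17.1, 18.8 and 18.2 CPM in P3_R1881, against 1.86, 1 and 1.44 CPM in EV_R1881 (3.66 ± 0.15). It stood at 28.8 CPM in P3_vehicle and 26.3 CPM in EV_vehicle. CTNNA3, an alpha-catenin gene, was 5, 5.32 and 4.25 CPM in P3_R1881 against 0.697, 0.317 and 0.328 CPM in EV_R1881 (3.42 ± 0.26), GRIK1, a kainate receptor gene, 3.33, 3.96 and 1.9 CPM in P3_R1881 against 0.232, 0.475 and 0.131 CPM in EV_R1881, and ADM, the adrenomedullin gene, 1.15, 1.84 and 2.24 CPM in P3_R1881 against 0.058, 0.159 and 0.131 CPM in EV_R1881. The long noncoding RNA LINC02672 was 10.2, 8.99 and 6.94 CPM in P3_R1881 against 0.929, 0.264 and 0 CPM in EV_R1881 (4.39 ± 0.40). Of 12 such genes, DAB1, an adaptor of reelin signalling, had 3 counts in EV_R1881 and LINC01322 had 1. Their scaled ratios were 20.5 (95% exact interval 6.72 to 102) and 61.5 (10.7 to 2466), for counting error only. The largest falls included genes of low level. MMRN2, a multimerin gene, was 1.55, 1.11 and 0.951 CPM in P3_R1881 and 3.83, 3.8 and 4.46 CPM in EV_R1881 (-1.74 ± 0.32), and GHRHR, a growth hormone-releasing hormone receptor, 0.345, 0.435 and 0.392 CPM in P3_R1881 and 1.28, 1.64 and 1.44 CPM in EV_R1881 (-1.87 ± 0.50).

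Cell-cycle genes moved up together. Mitosis genes include the spindle, kinetochore and checkpoint genes whose transcripts peak late in the cycle, and many of their promoters hold a cell-cycle homology region (TTTGAA) beside CCAAT boxes. Of 67 tested, 64 were called higher and none lower, with a median of 1.02 and 34 past 2-fold. TOP2A, the topoisomerase that untangles chromosomes, was 129, 132 and 129 CPM in P3_R1881, against 61.1, 51.6 and 51 CPM in EV_R1881 (1.25 ± 0.060). BIRC5, the survivin gene, was 77.8, 85.4 and 77.9 CPM in P3_R1881 against 31, 32.4 and 32.4 CPM in EV_R1881 (1.33 ± 0.066), and the transcription factor gene MYBL2 72.5, 73 and 78.7 CPM in P3_R1881 against 37.6, 34 and 34.9 CPM in EV_R1881 (1.07 ± 0.068). In these bulk samples a larger share of dividing cells and more of each transcript per cell cannot be told apart.

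The promoters of mitosis genes were read from RefSeq (GRCh38.p14, 250 bases before to 50 bases after the start), where 58 of the 67 tested genes were matched by symbol. Searched on both strands, TTTGAA lay in 39 of the 58 (67.2%), against 15.4% of 27305 promoters in the table, and CCAAT in 43 (74.1%), against 35.7%. Both lay in 31 (53.4%), against 6.08%. Members with and without TTTGAA had like medians, 1.02 and 1.03. Over all 11361 tested genes matched, 29.03% of those with both motifs were called higher, against 18.7% of the others. The 465 genes with both motifs include the 31 mitosis genes, so this share is not independent of the list. Genes of 1 chromosome were left out of the choice of promoters to show. The promoters of the 3 remaining members with both motifs and the smallest adjusted p are shown, with TTTGAA and CCAAT on either strand in capitals. They lie at chr17:40417847-40418146 (minus strand, TOP2A), chr1:214602945-214603244 (plus strand, CENPF, a kinetochore gene) and chr10:92592880-92593179 (plus strand, KIF11, a spindle kinesin gene).
TOP2A: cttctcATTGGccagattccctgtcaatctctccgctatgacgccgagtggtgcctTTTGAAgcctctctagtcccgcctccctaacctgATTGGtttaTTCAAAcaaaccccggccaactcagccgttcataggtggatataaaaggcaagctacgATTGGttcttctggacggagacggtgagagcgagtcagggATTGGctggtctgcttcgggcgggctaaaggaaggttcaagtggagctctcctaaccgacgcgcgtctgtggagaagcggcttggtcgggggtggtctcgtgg
CENPF: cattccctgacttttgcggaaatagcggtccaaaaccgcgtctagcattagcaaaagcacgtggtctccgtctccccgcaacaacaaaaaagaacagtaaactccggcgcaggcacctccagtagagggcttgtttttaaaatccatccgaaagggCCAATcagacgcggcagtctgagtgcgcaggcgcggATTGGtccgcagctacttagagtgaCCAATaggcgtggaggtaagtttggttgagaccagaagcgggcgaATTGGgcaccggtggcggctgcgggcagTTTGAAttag
KIF11: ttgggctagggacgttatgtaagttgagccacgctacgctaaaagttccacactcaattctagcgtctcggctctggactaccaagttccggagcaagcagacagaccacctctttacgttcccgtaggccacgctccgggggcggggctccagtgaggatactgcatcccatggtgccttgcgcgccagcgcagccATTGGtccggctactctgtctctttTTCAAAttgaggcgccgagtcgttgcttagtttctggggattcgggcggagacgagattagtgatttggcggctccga
TOP2A holds 4 CCAAT boxes and 2 TTTGAA matches in this window, CENPF 4 and 1, and KIF11 1 of each. A match is a description of the letters and not a measured binding site. CENPF was 136, 134 and 134 CPM in P3_R1881, against 65.5, 52.3 and 49.1 CPM in EV_R1881 (1.28 ± 0.070), and KIF11 43.1, 45.4 and 45.9 CPM in P3_R1881 against 21, 19.4 and 15.3 CPM in EV_R1881 (1.27 ± 0.083).

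Replication genes rose as well. Of 56 tested, 54 were higher and none lower, with a median of 0.73. TK1, thymidine kinase, was 109, 112 and 128 CPM in P3_R1881, against 45.5, 41.1 and 49 CPM in EV_R1881 (1.37 ± 0.068). MCM2, a subunit of the replicative helicase, was 89.9, 93.9 and 97.3 CPM in P3_R1881 against 40.5, 40.7 and 45.8 CPM in EV_R1881 (1.15 ± 0.067), and its partner MCM7 163, 186 and 189 CPM in P3_R1881 against 94.7, 101 and 103 CPM in EV_R1881 (0.85 ± 0.058). The motif TTTNGCGC of E2F factors lay in 14 of 48 promoters of the list (29.2%), against 1.83% of all promoters. With the same chromosome left out, MCM2 had the smallest adjusted p among them. It is shown from chr3:127598161-127598460 on the plus strand, with 2 overlapping matches on opposite strands in capitals.
MCM2: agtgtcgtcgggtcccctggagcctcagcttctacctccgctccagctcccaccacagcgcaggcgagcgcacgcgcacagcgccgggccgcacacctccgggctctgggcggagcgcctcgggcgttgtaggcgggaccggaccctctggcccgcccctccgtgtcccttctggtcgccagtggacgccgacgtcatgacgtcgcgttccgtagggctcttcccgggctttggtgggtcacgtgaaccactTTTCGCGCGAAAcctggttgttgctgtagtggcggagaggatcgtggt
Of 33 genes of G1 control, 19 were higher and 2 lower, with a median of 0.31. E2F1 was 49.2, 47.4 and 50.1 CPM in P3_R1881 and 26.6, 26 and 24.6 CPM in EV_R1881 (0.93 ± 0.071), and the atypical repressor E2F7 18.5, 15.9 and 19.1 CPM in P3_R1881 and 6.39, 6.08 and 7.53 CPM in EV_R1881 (1.42 ± 0.12). CDKN2C, an inhibitor of CDK4 and CDK6, rose too (1.14 ± 0.091), whereas the related inhibitor CDKN2B fell to 10.04 CPM in P3_R1881, against 19.9 CPM in EV_R1881 (-0.99 ± 0.14). CDK6 was lower (-0.72 ± 0.24), a call lost without EV_R1881 S16 (adjusted p = 0.0667) or P3_R1881 S34 (0.0677).

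DNA repair genes, a list that holds members of the homologous recombination and Fanconi pathways, were mostly higher. Of 43 tested, 32 were higher and 1 lower, with a median of 0.56. BARD1, the partner of BRCA1, was 158, 144 and 137 CPM in P3_R1881, against 49.7, 47.6 and 40.03 CPM in EV_R1881 (1.67 ± 0.067). BRCA1 was 48.7, 51.4 and 46.3 CPM in P3_R1881 against 25, 23.5 and 19.7 CPM in EV_R1881 (1.10 ± 0.078), and FANCD2 60.7, 62.7 and 55.7 CPM in P3_R1881 against 24.2, 27.2 and 24.7 CPM in EV_R1881 (1.23 ± 0.071). The lower member was LIG4, a ligase of end joining (-0.50 ± 0.093). Of 46 DNA and histone modifying enzymes 22 were higher and 7 lower. EZH2, the H3K27 methyltransferase, was 40.9 CPM in P3_R1881 and 23.7 CPM in EV_R1881 (0.79 ± 0.078), and NSD2, an H3K36 methyltransferase, 181 CPM in P3_R1881 and 112 CPM in EV_R1881 (0.69 ± 0.052).

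Histone genes of the replication-dependent clusters did not follow the replication genes. Of 27 listed genes tested, 13 were lower and 2 higher, with a median of -0.48. H2BC21 was 161, 162 and 159.98 CPM in P3_R1881, against 286, 295 and 285 CPM in EV_R1881 (-0.84 ± 0.056), H4C8 42.2, 42.2 and 41.5 CPM in P3_R1881 against 73.4, 77.2 and 70.3 CPM in EV_R1881 (-0.81 ± 0.076), and the linker histone gene H1-2 84.1, 78.7 and 86.3 CPM in P3_R1881 against 121, 143 and 150.1 CPM in EV_R1881 (-0.73 ± 0.069). The 2 higher members were not core histones but NPAT, which activates histone transcription (0.27 ± 0.091), and SLBP, which binds the histone stem-loop (0.28 ± 0.064). NPAT was no longer called when all 24 libraries were fitted (adjusted p = 0.408), with DESeq2 (0.0501) and without EV_R1881 S30 (0.0906), P3_R1881 S34 (0.115) or P3_R1881 S6 (0.0604). The libraries were made from polyadenylated RNA, and most replication-dependent histone transcripts end in a stem-loop instead, so these counts describe the polyadenylated fraction. Histone genes share much sequence, and the labels do not say how reads with several alignments were counted.

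Of 29 p53 targets 14 were higher and 2 lower, with a median of 0.26. SESN1, a sestrin gene, was 105 CPM in P3_R1881 and 61.8 CPM in EV_R1881 (0.77 ± 0.063), DDB2, a damage sensor, rose (1.01 ± 0.093), and BTG2, an antiproliferative gene, rose (0.89 ± 0.078). The death receptor gene TNFRSF10B fell to 276, 282 and 274 CPM in P3_R1881, against 448, 445 and 439 CPM in EV_R1881 (-0.68 ± 0.047). Ribosome biogenesis genes and MYC targets had 18 of 40 higher and 2 lower, with a median of 0.11. MYC was 165, 158 and 168 CPM in P3_R1881 against 129, 113 and 127 CPM in EV_R1881 (0.41 ± 0.059) and FBL, the rRNA methyltransferase fibrillarin, 132, 151 and 139.9 CPM in P3_R1881 against 88.3, 98.8 and 105 CPM in EV_R1881 (0.54 ± 0.063).

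Enzymes of polyamine metabolism held some of the clearest falls. SMS, spermine synthase, was 425, 416 and 411 CPM in P3_R1881, against 894, 982 and 922 CPM in EV_R1881 (-1.16 ± 0.049). ODC1, ornithine decarboxylase, was 1476, 1398 and 1373 CPM in P3_R1881 against 2781, 2837 and 2845 CPM in EV_R1881 (-0.99 ± 0.047), and SAT1, the acetyltransferase that starts polyamine breakdown, 478, 441 and 426 CPM in P3_R1881 against 868, 971 and 896 CPM in EV_R1881 (-1.02 ± 0.054). Spermidine synthase SRM and the oxidases SMOX and PAOX were not called. TYMS, the thymidylate synthase of one-carbon metabolism in the same list, rose (1.004 ± 0.097). Over the list 8 were higher and 9 lower of 27 (7 lower under level-trend scaling).

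Lipid genes were mostly lower. Of 32 genes of cholesterol synthesis and uptake, 24 were lower and 3 higher, with a median of -0.48. FDFT1, squalene synthase, was 422, 429 and 430.3 CPM in P3_R1881, against 765, 807 and 795 CPM in EV_R1881 (-0.89 ± 0.050). ABCA1, the exporter of cholesterol, went the other way at 1.49, 1.93 and 2.46 CPM in P3_R1881 against 0.058, 0.475 and 0.131 CPM in EV_R1881 (3.05 ± 0.41), as did INSIG2, a retainer of SCAP (0.42 ± 0.075), while INSIG1 fell (-0.999 ± 0.051). Of 34 fatty acid genes 22 were lower and 4 higher, with a median of -0.39. FADS2, a desaturase gene, was 1284, 1242 and 1261 CPM in P3_R1881 against 2307, 2228 and 2460.1 CPM in EV_R1881 (-0.89 ± 0.051), and DGAT2 of triglyceride synthesis rose (0.54 ± 0.089).

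Listed genes of the secretory pathway were mostly lower, those of trafficking without exception in the fit reported. All 45 ER to Golgi trafficking genes tested were called lower, with a median of -0.47 and a range from -0.92 to -0.20. Under level-trend scaling 44 were, with a median of -0.36. SEC24D, a cargo adaptor of COPII vesicles, was 72.2, 70.3 and 73 CPM in P3_R1881, against 122, 129 and 116 CPM in EV_R1881 (-0.77 ± 0.061). LMAN1, a cargo receptor, was 299.9, 291 and 287 CPM in P3_R1881 against 462, 458 and 438 CPM in EV_R1881 (-0.63 ± 0.048), and RAB3B, a secretory vesicle GTPase, 167, 165 and 164 CPM in P3_R1881 against 309.8, 292 and 279 CPM in EV_R1881 (-0.83 ± 0.056). Of 42 glycosylation enzymes 27 were lower and 5 higher. UAP1, which makes UDP-N-acetylglucosamine, was 372 CPM in P3_R1881 and 647 CPM in EV_R1881 (-0.80 ± 0.050), whereas GALNT3, which starts O-glycans, rose (0.96 ± 0.072), as did FUT8, the core fucosyltransferase (0.58 ± 0.10).

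**Figure D4:**
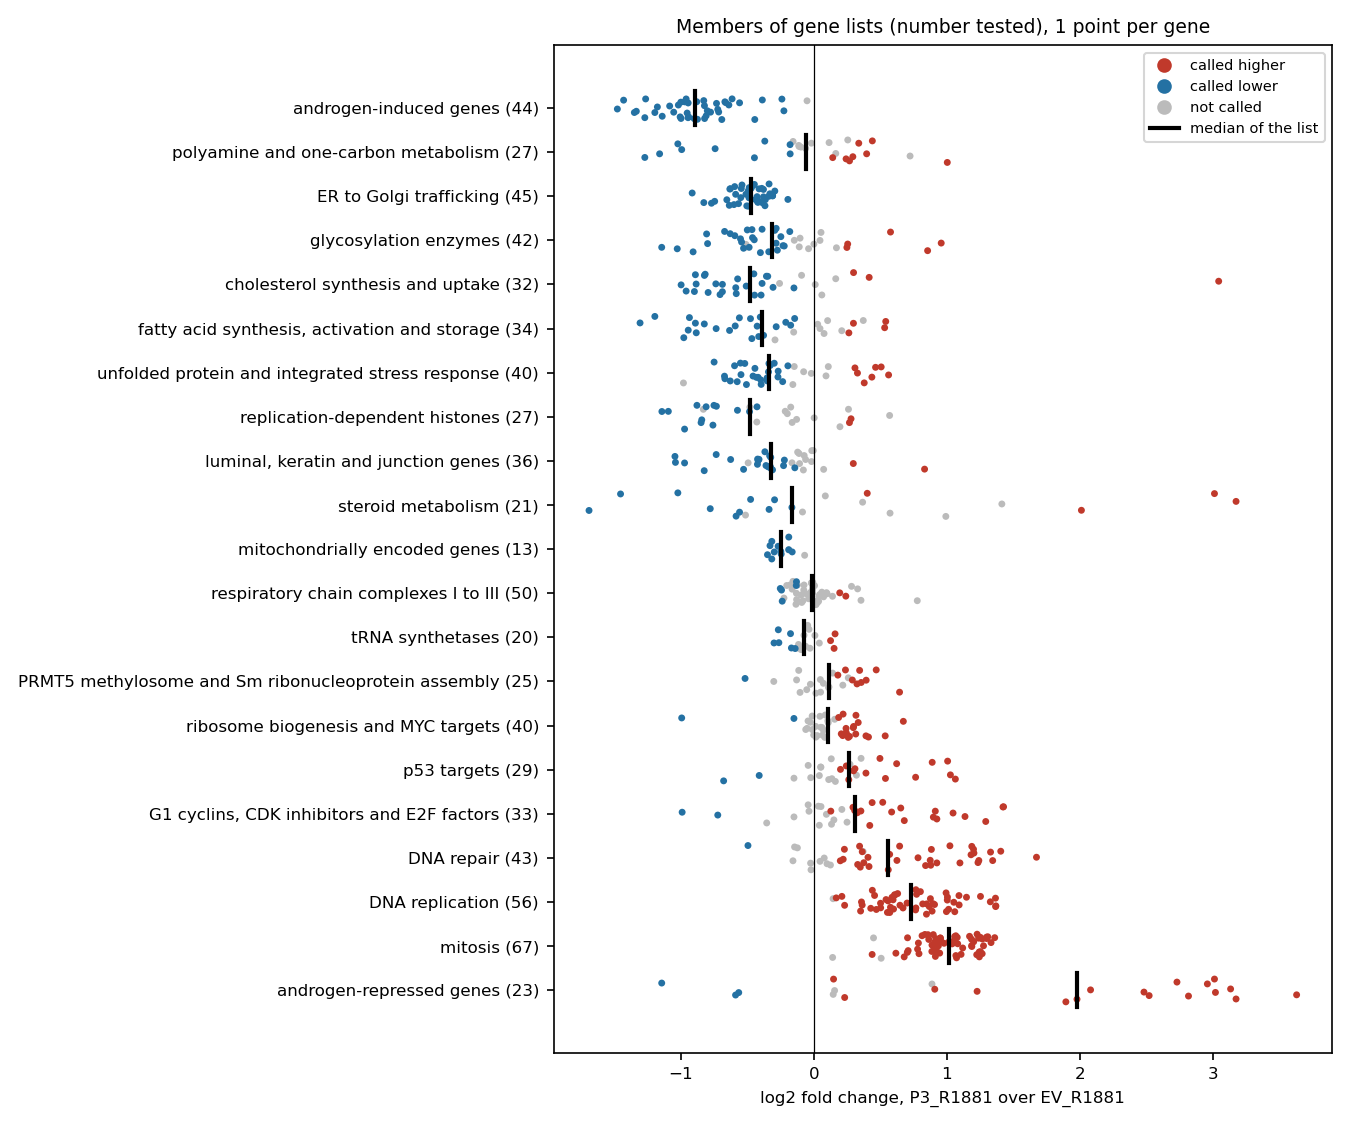
Log2 fold change of P3_R1881 over EV_R1881 (x) for the tested members of 21 gene lists (y, with the number tested); each point is a gene, coloured by its call, and the black line is the list's median. Trafficking genes lie wholly below 0 and mitosis and replication genes wholly above, while histone genes lie mostly below.

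Genes of the unfolded protein and integrated stress response were mostly lower. Of 40 members, 26 were lower and 7 higher, with a median of -0.34. The lower ones included ERN1, the ER stress sensor IRE1, at 109.9, 91.2 and 97 CPM in P3_R1881, against 166, 166 and 169 CPM in EV_R1881 (-0.75 ± 0.063), HERPUD1 of ER-associated degradation (-0.58 ± 0.050) and DNAJC3, an ER co-chaperone (-0.63 ± 0.056). Among the higher ones were PHGDH, at 380.4, 385 and 384 CPM in P3_R1881 against 257, 253 and 268 CPM in EV_R1881 (0.56 ± 0.049), and PSAT1 (0.51 ± 0.067), the first enzymes of serine synthesis. The other 5 higher members, given after their values were seen, were ASNS, CHAC1, DDIT3, PSPH and SESN2. The ER stress element, searched as CCAAT followed after 9 bases by CCACG, lay in 6 of 37 promoters of the list (16.2%), against 0.0806% of all promoters. HSPA5, the ER chaperone BiP, held it and is shown from chr9:125241294-125241593 on the minus strand, with the match in capitals.
HSPA5: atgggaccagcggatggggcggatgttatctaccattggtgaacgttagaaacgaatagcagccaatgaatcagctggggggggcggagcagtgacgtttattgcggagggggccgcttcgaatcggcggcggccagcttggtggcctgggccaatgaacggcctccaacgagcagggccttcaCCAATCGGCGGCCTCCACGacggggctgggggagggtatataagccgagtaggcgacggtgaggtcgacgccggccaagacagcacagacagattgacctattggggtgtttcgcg
HSPA5 itself was 1011, 973 and 946 CPM in P3_R1881, against 1396, 1387 and 1381 CPM in EV_R1881 (-0.51 ± 0.047). Amino acid transporters were divided, 6 higher and 5 lower of 18. SLC7A5, the large neutral amino acid transporter, was 7.98, 9.28 and 9.34 CPM in P3_R1881 against 2.84, 3.28 and 3.41 CPM in EV_R1881 (1.48 ± 0.16), SLC7A11, the cystine transporter, rose (0.69 ± 0.067), and SLC38A2, a glutamine transporter, fell to 408 CPM in P3_R1881, against 716 CPM in EV_R1881 (-0.81 ± 0.050). Of 20 tRNA synthetases 6 were lower (3 under level-trend scaling) and 3 higher, with a range of -0.30 to 0.16 over the list.

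Steroid metabolism held opposite changes within one gene family. UGT2B17, which conjugates androgens with glucuronic acid, was 68.4, 75.4 and 72.1 CPM in P3_R1881, against 13.4, 5.87 and 4.46 CPM in EV_R1881 (3.18 ± 0.26), and UGT2B15 20.2, 23 and 22.8 CPM in P3_R1881 against 4.41, 2.06 and 1.64 CPM in EV_R1881 (3.01 ± 0.17). Their neighbours fell, UGT2B28 to 13.3, 13.8 and 12.2 CPM in P3_R1881 against 39.9, 47.3 and 39.8 CPM in EV_R1881 (-1.69 ± 0.12) and UGT2B11 to 20.4, 25.8 and 20.4 CPM in P3_R1881 against 62.9, 63.2 and 56.6 CPM in EV_R1881 (-1.46 ± 0.099). UGT2B10 was higher as well (2.01 ± 0.41). In each of the first 4 genes the libraries of the groups were apart. These genes share much sequence, so the count of each is uncertain. Over the list 10 of 21 were lower and 4 higher, among the lower ones CYP2U1, a cytochrome P450 gene (-1.02 ± 0.058).

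Signalling genes showed no single direction. In the TGF-beta and BMP list 10 were higher and 7 lower of 33. SMAD6, an inhibitor of BMP signalling, was 27.3, 38.3 and 45.8 CPM in P3_R1881, against 12.3, 10.1 and 11.9 CPM in EV_R1881 (1.70 ± 0.14), the P3 libraries spreading widely but staying above. ATOH8, a helix-loop-helix gene nearly silent in EV_R1881, rose (3.34 ± 0.65). Chosen after their values were seen, the BMP target genes ID1 (1.66 ± 0.22), ID3 (2.05 ± 0.27) and SMAD7 (1.91 ± 0.24) were higher, while the receptors BMPR1A (-0.83 ± 0.070), BMPR1B (-0.43 ± 0.056) and TGFBR2 (-1.09 ± 0.42) were lower. In vehicle SMAD6 also stood higher in P3 cells (0.89 ± 0.13).

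Genes of IGF, WNT and NF-kB signalling moved in both directions. IGF1R, the receptor of insulin-like growth factor, was 155, 139 and 147 CPM in P3_R1881, against 282, 281 and 272 CPM in EV_R1881 (-0.92 ± 0.060), and IGF2R fell too (-0.58 ± 0.045). In vehicle IGF1R was higher with P3 (0.93 ± 0.072). GRB10, an adaptor that restrains insulin and IGF signalling, was 305, 288 and 275 CPM in P3_R1881 against 132, 105 and 109 CPM in EV_R1881 (1.32 ± 0.064). Of 36 members of that list 8 were higher and 10 lower. FZD5, a WNT receptor gene, was 103 CPM in P3_R1881 and 201 CPM in EV_R1881 (-0.96 ± 0.055), and JAG1, a NOTCH ligand, fell (-0.65 ± 0.062), in a list with 13 higher and 7 lower of 31. Among 21 NF-kB and cytokine genes 6 were higher and 9 lower. The inhibitor gene NFKBIA was 67.4 CPM in P3_R1881 and 116 CPM in EV_R1881 (-0.79 ± 0.066), and ACKR3, an atypical receptor of CXCL12, 73, 68.9 and 70.002 CPM in P3_R1881 and 15.5, 9.19 and 7.8 CPM in EV_R1881 (2.698 ± 0.17).

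Immediate early genes had 9 higher and 11 lower of 36. FOS was 6.26, 5.51 and 4.14 CPM in P3_R1881, against 0.755, 0.898 and 0.524 CPM in EV_R1881 (2.84 ± 0.27), and was likewise 5.15, 4.98 and 5.86 CPM in P3_vehicle against 0.219, 0.367 and 0.32 CPM in EV_vehicle (4.09 ± 0.30). Its difference therefore stood in both media. NR4A1, an orphan receptor gene, fell (-0.86 ± 0.083), as did KLF6 (-0.80 ± 0.083) and ATF3 (-0.67 ± 0.074). In the cell death list 9 were higher and 6 lower of 32, with BMF, a BH3-only gene, at 15.4, 19.1 and 17.4 CPM in P3_R1881 against 7.02, 4.33 and 6.62 CPM in EV_R1881 (1.55 ± 0.15) and the survival gene BCL2L1 lower (-0.62 ± 0.058). Of 37 glycolysis and hypoxia genes 7 were higher and 16 lower, with a median of -0.11. Under level-trend scaling 11 were lower and the median was 0.028. HK1, hexokinase, was among the lower (-0.65 ± 0.048) and PFKFB3 (0.60 ± 0.081) and EGLN3 (0.92 ± 0.12) among the higher. LDHA, also lower (-0.15 ± 0.049), changed sign under level-trend scaling (0.028, adjusted p = 0.71).

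Luminal genes were mostly lower, and the mesenchymal and neuroendocrine lists had members called in both directions. Of 36 luminal, keratin and junction genes 22 were lower and 2 higher, with a median of -0.32. KRT8 was 2132, 2049 and 2061 CPM in P3_R1881, against 3987, 4339 and 4557 CPM in EV_R1881 (-1.05 ± 0.051), and its partner KRT18 differed by -1.04 ± 0.056. Basal markers had 1 of 9 called (3 under level-trend scaling), SNAI2, at 3.62, 3.04 and 4.25 CPM in P3_R1881 against 8.94, 9.93 and 6.94 CPM in EV_R1881 (-1.25 ± 0.22). Mesenchymal and matrix genes had 10 of 26 higher and 4 lower, with fibronectin FN1 at 545, 535 and 559.9 CPM in P3_R1881 against 257, 213 and 235 CPM in EV_R1881 (1.22 ± 0.054) and smooth muscle actin ACTA2 at 10.2, 7.88 and 7.5 CPM in P3_R1881 against 19, 22.1 and 18.5 CPM in EV_R1881 (-1.23 ± 0.15). The summed CPM of that list was 1951 to 2004 in P3_R1881 and 1412 to 1526 in EV_R1881, with COL1A2, DCN and PDGFRA at 0, and its part in the result was not tested. Neuroendocrine genes had 3 of 14 higher, DDC, NTS (2.48 ± 0.21) and SYT4 (0.23 ± 0.047), and 4 lower. Their summed CPM was 2050 to 2070 in P3_R1881 and 1837 to 2005 in EV_R1881, although CHGA, CHGB and INSM1 were at 0. Endothelial markers had 3 of 4 higher, and their sum was 13.2 to 14.9 CPM in P3_R1881 and 7.98 to 9.00 CPM in EV_R1881, most of it VWF (0.70 ± 0.13; adjusted p = 0.0512 in the fit over all 24 libraries), with CDH5 at 0.

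The mitochondrially encoded, chaperone and lysosomal lists had more members lower than higher. Mitochondrially encoded genes were lower in 11 of 13, with MT-CYB at 2608, 2977 and 3009 CPM in P3_R1881, against 3884, 3449 and 3617 CPM in EV_R1881 (-0.35 ± 0.051), but 5 were called in the fit over all 24 libraries and 3 under level-trend scaling. Of 50 nuclear respiratory chain genes 5 were lower and 2 higher, with a median of -0.01. Both shares lay under those of all genes tested (18.9% lower and 18.1% higher). The number lower ran from 2 without EV_R1881 S16 to 14 without EV_R1881 S2. Of 27 heat shock and chaperone genes 13 were lower (8 under level-trend scaling) and 1 higher, with the small heat shock gene HSPB1 among the lower (-0.58 ± 0.060). Of 38 autophagy and lysosome genes 19 were lower, with NPC1 of lysosomal cholesterol export among them (-0.82 ± 0.054), and 2 higher, with the death-associated kinase DAPK1 among them (3.29 ± 0.23). Of 40 interferon response genes 10 were lower (6 without P3_R1881 S6), B2M of the class I complex among them (-0.70 ± 0.056), and 4 higher, OAS3 among them (0.68 ± 0.080). Of 36 ion channels and transporters 16 were lower, such as the zinc transporter SLC39A10 (-0.90 ± 0.054), and 6 higher, such as the bicarbonate transporter SLC4A4 (0.66 ± 0.055). Synaptic adhesion and guidance genes had 11 of 27 higher and 4 lower, with the teneurin TENM1 among the lower (-0.97 ± 0.13). Of 23 long noncoding RNAs 8 were higher, such as DRAIC (1.51 ± 0.12), and 3 lower, such as PART1 (-0.72 ± 0.14).

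For many genes, though not all, the difference with R1881 was not the one found without it. In vehicle, 2809 genes differed between P3 and EV (15.8%), and the interaction test called 4013 (22.6%), 2042 with a more positive (11.5%) and 1971 with a more negative difference (11.1%) under R1881. Of 1502 genes called in both media, 201 were higher with R1881 and lower in vehicle, 232 lower with R1881 and higher in vehicle, 472 higher in both and 597 lower in both. Mitosis genes had a median of -0.05 in vehicle, with 64 of 67 called in the interaction test, and trafficking genes a median of -0.10, with 37 of 45 called. For androgen-induced genes the median was 0.29 in vehicle, and 38 of 44 were called. Other lists had like counts or medians in both media. Mitochondrially encoded genes were lower in 11 of 13 with R1881 and 10 in vehicle, with 1 called in the interaction test. Heat shock and chaperone genes had medians of -0.14 with R1881 and -0.16 in vehicle. Single members still differed between media, with 5 of 27 called higher and 4 lower in the interaction test. The interaction term was -1.45 ± 0.068 for ACSL3, lower with P3 under R1881 and higher in vehicle (0.26 ± 0.049), and 0.81 ± 0.20 for SMAD6, higher with P3 in both media.

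WDR77 knockdown with R1881 gave another pattern. It shares no library with this comparison. Against control siRNA it called 1291 of 17893 genes (7.22%), 3.9% higher and 3.31% lower, with a log2 difference of -2.20 ± 0.093 for WDR77 itself. Of 791 genes called in both, which are 12.2% of the P3 calls and 61.7% of the knockdown calls, 138 moved the same way and 653 the opposite way, 247 of these higher with P3 and lower with siWDR77 and 406 the reverse. Mitosis genes had a median of 1.02 with P3 and of -0.94 with siWDR77, where 10 of 67 were called lower and none higher. Trafficking genes had medians of -0.47 with P3 and 0.17 with siWDR77. SETD7, a lysine methyltransferase, was an exception, lower with P3 (-0.52 ± 0.047) and with siWDR77 (-1.24 ± 0.065). Androgen-induced genes, nearly all lower with P3, had 11 of 44 higher and 3 lower with siWDR77. The control-siRNA vehicle library S35 stood apart in that study, and without it 1983 genes were called with siWDR77, 1219 of them also with P3, of which 204 moved the same way and 1015 the opposite way.

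**Figure D5:**
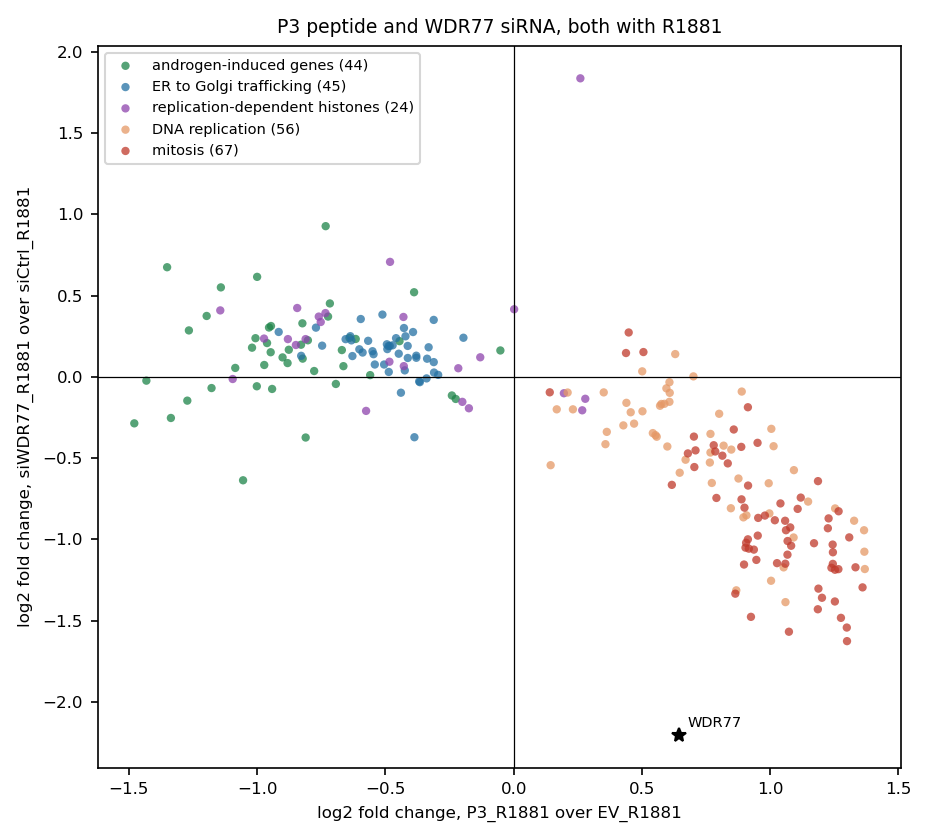
Log2 fold change of P3_R1881 over EV_R1881 (x) and of siWDR77_R1881 over siCtrl_R1881 (y) for the genes of 5 lists tested in both, and for WDR77 (star). Mitosis and replication genes lie at the lower right, higher with P3 and mostly below 0 with siWDR77, while trafficking genes lie left of 0, most of them above it.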

How the data were processed

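LNCaP poly(A) RNA-seq libraries were deposited by the authors as 1 table of raw counts per gene. Per the submitters' processing notes, bcl2fastq 2.20, STAR 2.7.9a and featureCounts of Subread 1.6.4 were used with GRCh38.p7. For the annotation release, strand setting and reads with several alignments, these notes give nothing. Columns were matched to samples by sample number, and 3 P3_R1881 columns carry the word siRNA in their names.

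The counts were fitted with edgeR 4.0.16 (R 4.3.3, limma 3.58.1), with TMM scaling, filterByExpr and the quasi-likelihood test, on the 12 libraries of P3 and EV cells, and 17772 of 60649 features were tested. The siRNA libraries were fitted apart (17893 features). P-values were adjusted by Benjamini and Hochberg over all features tested, and a gene was called at an adjusted p under 0.05. CPM values are the counts scaled by TMM. Intervals are 95% exact and cover counting error only. The fit was tried on simulated counts with the same spread for all genes and no trend with level, unlike these data. Of 50 genes changed at each size, it recovered 96% at a log2 change of 1 and 84% at -1. At 0.5 and -0.5 it recovered 66% and 46%. It also called 5 unchanged genes.

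The members and gene lists were chosen with earlier results of these data known. Named genes were WDR77, PRMT5, FOXA1, HOXB13 and 4 androgen targets, the 12 largest called changes per direction, 4 per gene list by lowest adjusted p and up to 2 against the list's median, and the 5 per direction of each hormone set. Some genes that this rule selects are not reported here. Genes outside this rule (ID1, ID3, SMAD7, TGFBR2 and members named without being among these) were chosen after their values were seen, and CENPF, KIF11 and HSPA5 by their promoters. Promoters were matched by symbol to RefSeq (GRCh38.p14), for 11361 tested genes.

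Alternatives were RLE size factors, DESeq2 1.42.0, no filter, the 6 libraries alone, all 24 libraries, a replicate block, leaving out each library, and, added after seeing the data, level-trend scaling (a loess offset per library) and a fit without 1 siRNA library. P3_R1881 and EV_R1881 libraries of the same run of sample numbers deviated together (r = 0.319, 0.207 and 0.277 over 5000 genes). Other pairs had r from -0.251 to -0.0108. Deviations from a group mean cancel within the group, so the values of other pairs are not independent of these. The numbers may pair the samples, but no label states it, and the fit reported used no pairing. No replicate pair agreed within sampling noise.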

Additional observations from a re-analysis of the deposited data

Results flagged for a closer look

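The difference of P3 against EV changed with the hormone, by an edgeR test of the interaction, for 4013 genes. Among genes followed in every fit, the interaction on the log2 scale (the P3 difference with R1881 minus that in vehicle) was 0.71 for WDR77 and 0.23 for PRMT5. It was -1.20 for KLK3, -2.03 for KLK2, -1.53 for TMPRSS2 and -1.54 for FKBP5, and all 6 passed the adjusted threshold over all genes. PRMT5 did so without a call in R1881 alone, its difference being 0.01 ± 0.060 with R1881 and -0.22 ± 0.058 in vehicle. The terms of the androgen targets likewise take in the vehicle difference and are not the size of the fall with R1881. In vehicle, 23 of 44 androgen-induced genes were called higher with P3 and 1 lower.

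Features too low to test took 0.152% of counts in P3_R1881, against 0.110% in EV_R1881 (means of 3 libraries each). All P3_R1881 libraries, at 0.144% to 0.166%, lay above all EV_R1881 libraries, at 0.104% to 0.116%.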

How the results depend on the processing

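The 42 gene-list counts and the genome-wide counts kept within 1.5 times of their value in most settings. The exceptions follow. Genes called at 2-fold or more numbered 541 higher and 375 lower under level-trend scaling, and 666 with 508 higher among genes of at least 1 CPM. Members called lower were 3 tRNA synthetases, 8 heat shock genes, 3 basal markers, 3 respiratory chain genes and 3 mitochondrially encoded genes under level-trend scaling, 8 respiratory chain genes with RLE size factors and 3 with the 6 libraries alone, and 5 mitochondrially encoded genes with all 24 libraries. Leaving out 1 library gave 5481 to 6323 genes called, 2 to 14 respiratory chain genes called lower and 6 to 9 interferon genes, the 6 without P3_R1881 S6. The siWDR77 comparison called 1983 genes without siCtrl_vehicle S35. Under level-trend scaling FOXA1 stood at 0.11 and LDHA at 0.028, both with a changed sign. The cause of these changes was not tested.

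With the replicate block 7123 genes were called, no named gene changed its call, and the number of members called in each list stayed within 1.5 times. The share of higher among called genes was 48.9% in the fit reported, 42.9% with RLE size factors, 42.5% with DESeq2 and 47.5% under level-trend scaling. Precision is limited by 3 libraries per group, and at low counts by depth, where 1 to 3 counts in EV_R1881 leave wide intervals.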
